A study of Mus musculus with 26 samples.

Results

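Among the transcripts that stay in the nucleus or act on chromatin, 7 long noncoding RNA (lncRNA) genes were followed here through the whole data set: *Malat1*, *Neat1*, *Hotair*, *Pvt1*, *Gas5*, *Snhg1* and *Miat*. They were taken by name from the GENCODE M21 annotation of the mouse genome (GRCm38, also called mm10) and make up 7 of the 53801 genes listed in each RNA-Seq table. All 7 were measured in female mouse embryonic fibroblasts (MEFs), an embryo-derived connective tissue cell. The cells were wild type (WT), ATRXΔRBR, a single CRISPR-Cas9 clone in which the RNA binding region (RBR) of the chromatin remodeler ATRX was deleted, or ATRX KD, in which ATRX was targeted with an shRNA and cells were selected with puromycin. RNA-Seq was made from polyA-selected RNA in 6 libraries, 2 per genotype. CUT&RUN, which releases and sequences the chromatin fragments bound by an antibody, gave 16 peak lists, with 2 replicates for each target in each genotype. Targets were ATRX in WT and ATRXΔRBR, and EZH2 and the histone mark H3K27me3 in all 3 genotypes. The 4 IgG libraries were not analysed here. Whole-cell RNA was sequenced, so the nuclear location that the genes are known for was not measured.

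Long noncoding RNAs are transcripts that do not code for protein, and the 7 genes cover several of their known modes of action. Malat1 accumulates in nuclear speckles, the bodies that store splicing factors, and Neat1 is the architectural RNA of paraspeckles. Gas5 and Snhg1 are host genes of small nucleolar RNAs (snoRNAs), which are cut out of their introns and guide the chemical modification of ribosomal RNA, while the spliced host transcript is known as a target of nonsense-mediated decay. Pvt1 lies next to the oncogene *Myc*. Hotair is transcribed from the HoxC cluster and has been linked to the Polycomb repressive complex 2 (PRC2), whose catalytic subunit EZH2 writes H3K27me3, a mark of silenced genes. Miat is best known from heart and brain.

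The sum of estimated counts was between 9051693 and 21723647 per library. Most of 11 fibroblast markers were detected in the RNA of every genotype. Above 1 CPM (counts scaled to library size) in both libraries were 8 of 11 in WT, 8 in ATRXΔRBR and 6 in ATRX KD. At 0 in both libraries were 2 in WT, 1 in ATRXΔRBR and 3 in ATRX KD. Summed epithelial, endothelial, immune and myogenic markers stayed under 6 CPM in every library (highest 5.67 CPM). Summed pluripotency markers were at 37.2 to 49.1 CPM in WT, 18.1 to 18.6 CPM in ATRXΔRBR and 0.509 to 0.981 CPM in ATRX KD. Of these 4 markers, only 1 was above 1 CPM in both WT libraries, 1 in both ATRXΔRBR libraries and 0 in both ATRX KD libraries. At 0 in both libraries were 2 of the 4 in WT, 2 in ATRXΔRBR and 3 in ATRX KD. The part of this in the results was not tested. *Atrx* itself stood at 633 and 434 CPM in WT, 371 and 312 CPM in ATRXΔRBR, and 411 and 550 CPM in ATRX KD. By CPM, the ATRX KD libraries thus overlapped WT (edgeR log2 fold change -0.15 ± 0.21 SE, adjusted p = 0.605). By TPM, a level that RSEM corrects for transcript length, they were above all others. They stood at 331 and 512 TPM, against 233 and 141 TPM in WT and 175 and 124 TPM in ATRXΔRBR. No lower level of *Atrx* passed the test, and these are called here the libraries labelled ATRX KD. The study assessed the knockdown on ATRX protein by western blot, which was not analysed here. The average transcript length that RSEM assigned to *Atrx* also differed. It was 2839 and 2405 bp in the libraries labelled ATRX KD, against 4974 and 6292 bp in WT and 4524 and 4840 bp in ATRXΔRBR. The raw files of the libraries labelled ATRX KD carry names of another form than the rest and name no sequencing run. Whether they were sequenced in a separate run is not stated, and genotype and a possible difference in run cannot be told apart. In these libraries fold changes also moved with transcript length. Against WT, genes under 1000 bp had a median log2 fold change of -0.38 and 21.1% were called lower, whereas genes over 3000 bp had a median of 0.26 and 11.9% were called lower. The part of transcript length in the results below was not tested.

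The 7 genes fell into 2 sets by their RNA and their chromatin. *Malat1*, *Neat1*, *Pvt1*, *Gas5* and *Snhg1* were transcribed in all 6 libraries and had no H3K27me3 peak in any of the 6 H3K27me3 lists, neither within 2 kb of the transcription start site (TSS) nor over the gene. *Hotair* and *Miat* had 0 estimated counts in all 6 libraries, where 3 counts correspond to between 0.139 and 0.327 CPM, and had H3K27me3 peaks at the TSS in 4 and 6 of the 6 lists. Genes at 0 counts in all 6 libraries were common, at 47.7% of all genes and 58.0% of lncRNA genes. Of the genes at 0, 13.3% had H3K27me3 at the TSS in both WT lists, compared with 8.93% of the genes with counts.

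Peaks near a TSS were counted in each list. ATRX was listed at 2 and 2 of the 7 genes in WT and at 4 and 0 in ATRXΔRBR, where 6.76% and 3.39%, and 7.31% and 3.06%, of all 55450 annotated genes had such a peak. At 2.96% of genes ATRXΔRBR replicate 1 listed ATRX where no WT list did, as at *Pvt1*. EZH2 was listed at 5 and 3 of the 7 in WT (26.4% and 24.1% of all genes), at 5 and 3 in ATRXΔRBR (25.6% and 17.9%) and at 1 and 1 in the lists labelled ATRX KD (9.87% and 12.6%). H3K27me3 was listed at 2 of the 7 in each WT list (11.8% and 12.7%) and each ATRXΔRBR list (13.5% and 12%), and at 1 in each list labelled ATRX KD (3.75% and 3.43%).

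**Figure D1:**
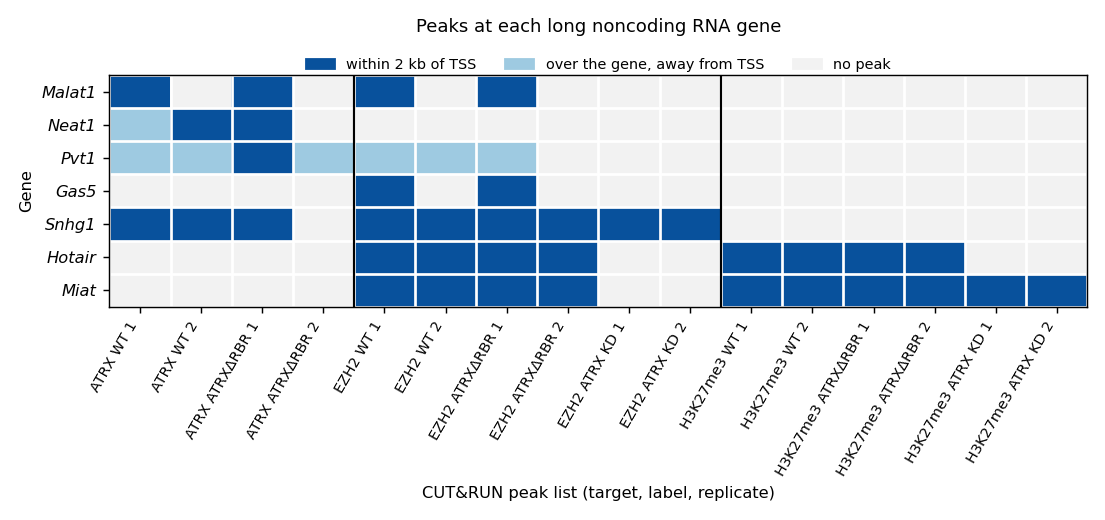
Presence of ATRX, EZH2 and H3K27me3 peaks at 7 lncRNA genes (rows) in the 16 CUT&RUN peak lists (columns, named by target, label and replicate). Dark blue marks a peak within 2 kb of the TSS, light blue a peak elsewhere over the gene and grey no peak. H3K27me3 appears in the *Hotair* and *Miat* rows only, and *Snhg1* is the only row with EZH2 in all 6 EZH2 lists.

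The order of the 5 transcribed genes was read from TPM, the abundance that RSEM corrects for transcript length. In WT, *Malat1* was at 1284 ± 601 TPM (SD, n = 2), *Gas5* at 982 ± 0.23, *Snhg1* at 846 ± 5.69, *Neat1* at 288 ± 38.5 and *Pvt1* at 40.8 ± 0.78. The wide spread of *Malat1* in WT covered the *Gas5* level, and the other neighbours in this order did not overlap. The average *Malat1* length assigned by RSEM also differed, at 2910 bp in WT replicate 1 and 4800 bp in WT replicate 2. In CPM, which are not corrected for length, these libraries were at 2696 and 2015. The part of length in the spread was not tested. In ATRXΔRBR, *Gas5* (1573 ± 81.4 TPM) and *Malat1* (1543 ± 13.2 TPM) overlapped at the top, followed by *Snhg1* at 773 ± 18.1, *Neat1* at 378 ± 38.8 and *Pvt1* at 50.3 ± 7.64 TPM. In the libraries labelled ATRX KD the order changed. *Malat1* came first at 880 ± 36.9 TPM and *Gas5* second at 432 ± 13.4 TPM, while *Snhg1* at 194 ± 22 TPM overlapped *Neat1* at 203 ± 3.02 TPM and *Pvt1* remained last at 19.6 ± 3.14 TPM. By TPM, *Malat1* ranked between 38th and 103rd of all genes in each library and *Pvt1* between 4176th and 8281st.

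**Figure D2:**
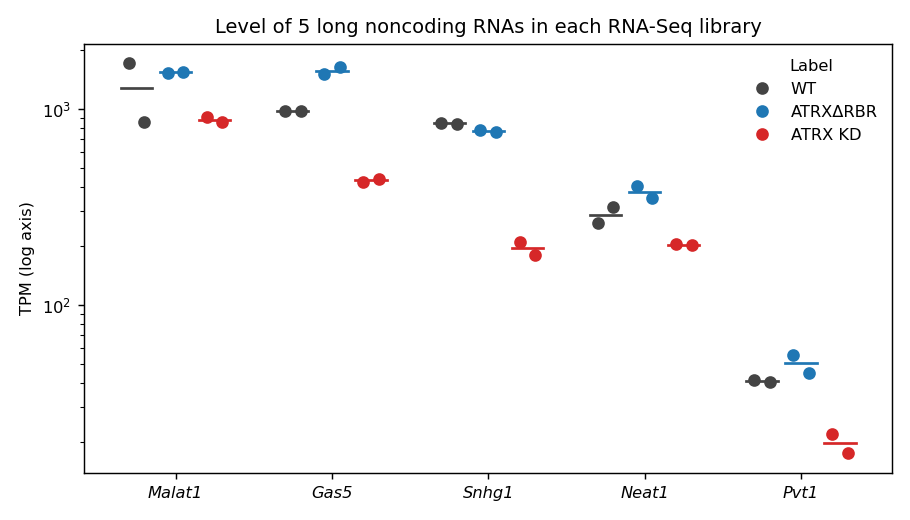
Level of the 5 transcribed lncRNAs in TPM (vertical log axis) in each RNA-Seq library, where points are libraries, bars are means of 2 libraries and colours are labels. The points labelled ATRX KD lie under both other labels for *Gas5*, *Snhg1*, *Neat1* and *Pvt1*, whereas for *Malat1* they lie beside the lower WT library at 859 TPM.

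Next, the RNA levels were compared between genotypes. Of the 5 genes that could be tested, 0 were called in ATRXΔRBR against WT by edgeR's quasi-likelihood test (adjusted p under 0.05), where 6.85% of all 16334 genes tested were called (2.79% higher and 4.07% lower). At an unadjusted p under 0.05 the count was 1 (*Gas5*), and DESeq2 called 0 of them. On data simulated for this comparison, the edgeR test recovered 47 of 100 changes of 2-fold. A smaller difference can thus be missed, and a gene not called is not shown to be unchanged. Against WT, all 5 of 5 were called lower in the libraries labelled ATRX KD, where 17.8% of 16785 genes were called lower, 15.2% higher and 33.0% in either direction. The libraries labelled ATRX KD and ATRXΔRBR were also compared directly: again 5 of 5 were called lower, against 18.5% of 16520 genes (16.2% were called higher and 34.7% in either direction). The median log2 fold change of the 5 genes was 0.34, -1.32 and -1.74 in the 3 comparisons, while the median of all genes tested was -0.02, -0.02 and -0.01. The 3 comparisons share libraries. The study describes the 2 libraries per group as biological replicates. The labels do not say whether these are separate cultures, and p-values measure only the spread between these libraries.

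**Figure D3:**
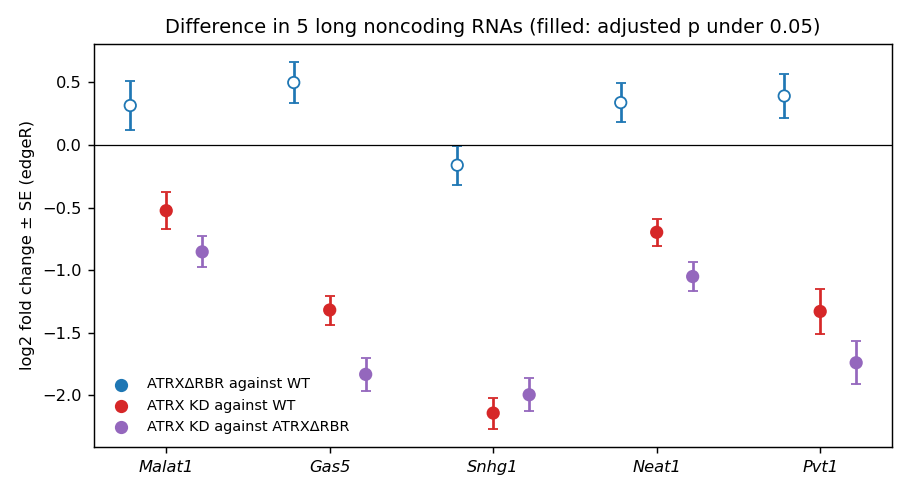
Log2 fold change with its SE (vertical axis, edgeR) of the 5 transcribed lncRNAs in ATRXΔRBR against WT (blue), in the libraries labelled ATRX KD against WT (red) and against ATRXΔRBR (purple). Filled points have an adjusted p under 0.05: 0 of 5 blue points are filled, and all red and purple points are filled and lie under 0, from -0.52 to -2.14.

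*Malat1* and *Neat1* are neighbours on chromosome 19, both transcribed from the minus strand (*Malat1*, chr19:5795690-5802672; *Neat1*, chr19:5824708-5845478). The WT libraries held 35271 and 24131 estimated counts of *Malat1*, the ATRXΔRBR libraries 30318 and 36341, and those labelled ATRX KD 15151 and 35320. In CPM, WT was at 2696 and 2015, ATRXΔRBR at 3183 and 2641, and the libraries labelled ATRX KD at 1651.3 and 1634.7. Both libraries labelled ATRX KD were thus below the other 4, while WT and ATRXΔRBR overlapped. The log2 fold change was 0.32 ± 0.19 (SE, adjusted p = 0.415) in ATRXΔRBR and -0.52 ± 0.15 (adjusted p = 0.0334) in the libraries labelled ATRX KD. The latter call was lost without either library labelled ATRX KD (adjusted p = 0.163 and 0.186) and when limma was run on log2 TPM with a pseudocount of 1 or 0.1 (adjusted p = 0.326 and 0.332).

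The measurement of *Malat1* is complicated by a short gene model on the opposite strand inside it, Gm37376 (chr19:5801941-5802393). Gm37376 had 1911 counts in WT replicate 1 and 1517 in ATRXΔRBR replicate 2, and 0 in the other 4 libraries. In the same libraries, the average *Malat1* length was 2910 and 3296 bp, compared with 4155 to 4800 bp in the other 4. The RNA-Seq kit keeps strand, but the strand setting used for counting is not given in the sources used here, so reads of the overlapping models may have been divided between them. With the Gm37376 counts added to *Malat1*, which made up at most 5.14% of the sum, the number of lncRNAs called was the same in each comparison.

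For *Neat1*, the WT libraries held 6334 and 6117 counts, the ATRXΔRBR libraries 6122 and 8373, and those labelled ATRX KD 2803 and 6701. In CPM this was 484 and 511, 643 and 608, and 305 and 310, so that the 3 genotypes did not overlap and the ATRXΔRBR libraries were highest. The higher level in ATRXΔRBR did not pass the test (log2 fold change 0.34 ± 0.16, adjusted p = 0.273). The lower level in the libraries labelled ATRX KD did (-0.70 ± 0.11, adjusted p = 0.00353), but not without either of them (adjusted p = 0.0603 and 0.0616) nor in limma on log2 TPM with a pseudocount of 0.1 (adjusted p = 0.0511). Its average length was between 3325 and 3434 bp in all 6 libraries, close to the short form of *Neat1* (3004 bp) and far from the long form that scaffolds paraspeckles (20771 bp). A length estimated by RSEM from polyA-selected reads is no count of either form.

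ATRX peaks were found around both genes, with 3.49- to 5.09-fold enrichment and in varying positions. *Malat1* had an ATRX peak within 2 kb of its TSS in WT replicate 1 and ATRXΔRBR replicate 1 and *Neat1* in WT replicate 2 and ATRXΔRBR replicate 1. Peak lists differ in how many TSS they reach (3.39% to 6.76% of all 55450 annotated genes in WT and 3.06% to 7.31% in ATRXΔRBR), and at neither gene did both lists of a genotype hold such a peak. Peaks past the 3' end of *Malat1*, 7.2 to 8.5 kb from its start, were listed in both WT replicates and ATRXΔRBR replicate 2. Those of WT replicate 1 and ATRXΔRBR replicate 2 did not overlap each other. EZH2 was listed upstream of *Malat1* in WT replicate 1 and ATRXΔRBR replicate 1 and past its 3' end in WT replicate 2. *Neat1* had no EZH2 peak in any list. *Frmd8*, the protein-coding gene next to *Neat1*, was lower in the libraries labelled ATRX KD as well (log2 fold change -0.63, adjusted p = 0.0208).

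Proteins of the nuclear bodies in which these RNAs reside were called in both directions. Of 14 paraspeckle proteins, 1 was called higher and 3 lower in the libraries labelled ATRX KD against WT (28.6% called, against 33.0% of all genes tested), with a median log2 fold change of -0.15. These were *Smarca4* (0.76), a chromatin remodeling ATPase also found in paraspeckles, and *Hnrnpm* (-0.64), *Sfpq* (-0.53), a core paraspeckle protein, and *Hnrnpk* (-0.45). Of 13 nuclear speckle proteins, 4 were called higher and 3 lower (53.8% called, median 0.07). The largest differences were those of the splicing factors *Srsf3* (-0.73) and *Srsf7* (-0.65) and of the speckle scaffold proteins *Srrm2* (0.71) and *Srrm1* (0.65). In ATRXΔRBR, 0 of the 14 and 0 of the 13 were called by edgeR, with 0 and 1 of them at an unadjusted p under 0.05. Of all genes tested there, 6.85% were called.

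*Gas5* (chr1:161034422-161038539, plus strand) and *Snhg1* (chr19:8723475-8726443, plus strand) fell furthest, together with *Pvt1*. Estimated counts of *Gas5* were 3788 and 3623 (WT), 3719 and 6080 (ATRXΔRBR), and 1040 and 2694 (labelled ATRX KD). This was 290 and 302 CPM in WT, 390 and 442 CPM in ATRXΔRBR, and 113 and 125 CPM in the libraries labelled ATRX KD, without overlap between the genotypes. Levels in the libraries labelled ATRX KD were 40.1% of WT (log2 fold change -1.32 ± 0.12, adjusted p = 0.000491). In ATRXΔRBR, *Gas5* was 1.41-fold of WT, which was not called (0.50 ± 0.16, adjusted p = 0.123) but passed when all 6 libraries shared 1 fit (adjusted p = 0.0404) and with a crossed replicate block chosen after seeing the data (adjusted p = 1.73e-05).

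Estimated counts of *Snhg1* were 3952 and 3717 (WT), 2539 and 3827 (ATRXΔRBR), and 679 and 1415 (labelled ATRX KD). In CPM, WT stood at 302 and 310, ATRXΔRBR at 267 and 278, and the libraries labelled ATRX KD at 74.0 and 65.5. The last were 22.7% of WT (log2 fold change -2.14 ± 0.12, adjusted p = 0.00012), which was the largest difference among the 5 genes. *Snhg1* was also the only one of the 5 with a negative log2 fold change in ATRXΔRBR (-0.16 ± 0.16, adjusted p = 0.632).

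Most other noncoding snoRNA host genes were lower as well. Of 14 such genes tested, 11 were called lower and 1 higher in the libraries labelled ATRX KD against WT, with a median log2 fold change of -1.49. This count of lower genes was between 9 and 12 in all alternative analyses. *Dancr* (-2.25), *Epb41l4aos* (-2.21), *Snhg8* (-2.07) and *Zfas1* (-2.05) fell most, whereas *Snhg14*, the imprinted host of brain snoRNAs, rose (2.38 ± 0.24, adjusted p = 0.000717). Compared with ATRXΔRBR, again 11 were called lower and 1 higher (median -1.42), where 18.5% of all genes tested were called lower and 16.2% higher. In ATRXΔRBR against WT only *Snhg14* was called (-2.16 ± 0.44, adjusted p = 0.0258), and the median was -0.07. This share of 7.14% was close to the 6.85% of all genes tested that were called in that comparison. DESeq2 at an adjusted p under 0.05 and limma on log2 TPM with either pseudocount called 0 of the 14, and without WT replicate 1 or ATRXΔRBR replicate 1 the count was 2. Of 1617 lncRNA genes tested other than those followed here, 8.78% were called lower in the libraries labelled ATRX KD against WT. Host genes may be among these 1617, of which 14.7% were called in either direction. In the same comparison, 17.8% of all genes tested and 21.1% of genes under 1000 bp were called lower. *Gas5* and *Snhg1* have average lengths of 613 and 774 bp, in the length class whose median was lower.

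**Figure D4:**
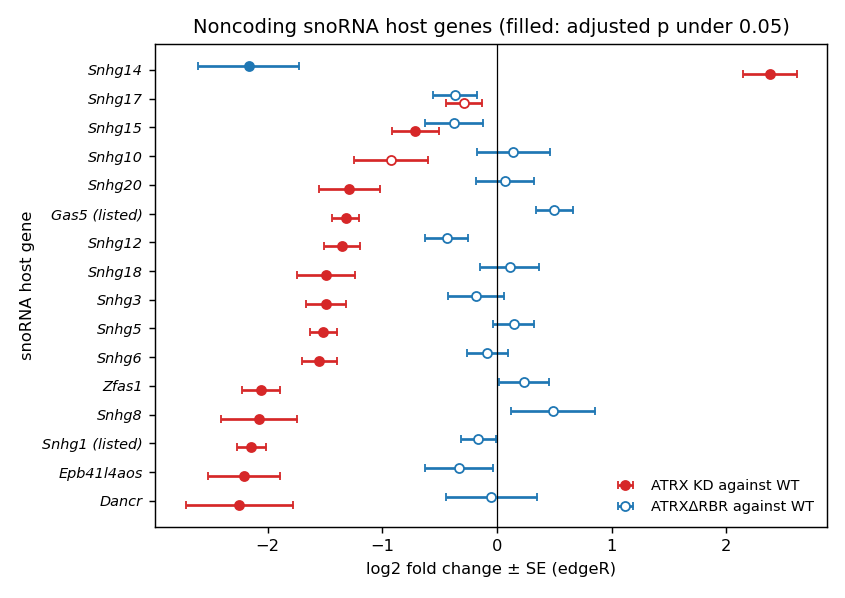
Log2 fold change with its SE (horizontal axis, edgeR) of 16 noncoding snoRNA host genes (rows), *Gas5* and *Snhg1* included, in the libraries labelled ATRX KD (red) and ATRXΔRBR (blue) against WT, with filled points where the adjusted p was under 0.05. Most red points lie between -1.29 and -2.25, the blue points scatter around 0, and *Snhg14* is lower in ATRXΔRBR and higher in the libraries labelled ATRX KD.

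The snoRNAs hosted by the 2 genes could not be followed in this polyA-selected RNA. The annotation places 10 small RNA entries of snoRNA type within *Gas5* and 8 within *Snhg1*, and the highest estimated count among them was 17.6 and 44.6 in any library. Factors of nonsense-mediated decay, the pathway that degrades such spliced host transcripts, were mixed in the libraries labelled ATRX KD: of 10 genes tested, 4 were called higher and 1 lower against WT (50% called, against 33.0% of all genes). Among them, *Smg6* (0.63) and *Smg8* (0.56) rose and *Smg9* fell (-0.91). In ATRXΔRBR, 0 of the 10 were called by edgeR (against 6.85% of all genes) and 2 had an unadjusted p under 0.05.

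Both host genes share their promoter region with a gene on the opposite strand. *Gas5* overlaps *Zbtb37* (minus strand) by 428 bp at its outermost start. *Zbtb37* had 14.4 and 26.4 CPM in WT, 55.4 and 26.5 CPM in ATRXΔRBR and 56.7 and 63.6 CPM in the libraries labelled ATRX KD, where it was called higher (log2 fold change 1.56 ± 0.26, adjusted p = 0.0051) while *Gas5* was lower. *Snhg1* starts 106 bp from *Slc3a2*, the heavy chain of several amino acid transporters, which reads the other way. *Slc3a2* had 352 and 295 CPM in WT, 412 and 517 CPM in ATRXΔRBR and 187 and 206 CPM in the libraries labelled ATRX KD (-0.72 ± 0.13, adjusted p = 0.0067). The gene on the other side of *Snhg1*, *Wdr74*, was also lower there (-0.72, adjusted p = 0.0103).

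The promoter sequences of *Gas5* and *Snhg1* are shown because the data bear on both: RNA of either gene fell, and EZH2 peaks lie at these starts. They come from the RefSeq promoter table of GRCm38.p6 and run from 250 bases before to 50 bases after the start on the plus strand (*Gas5*, chr1:161034916-161035215; *Snhg1*, chr19:8723237-8723536). For *Gas5*, which has several starts, this is the window where most annotated transcripts begin. Of the 7 lncRNAs, 4 were in the table (*Malat1*, *Gas5*, *Snhg1* and *Miat*). Capitals mark CG dinucleotides.
Gas5: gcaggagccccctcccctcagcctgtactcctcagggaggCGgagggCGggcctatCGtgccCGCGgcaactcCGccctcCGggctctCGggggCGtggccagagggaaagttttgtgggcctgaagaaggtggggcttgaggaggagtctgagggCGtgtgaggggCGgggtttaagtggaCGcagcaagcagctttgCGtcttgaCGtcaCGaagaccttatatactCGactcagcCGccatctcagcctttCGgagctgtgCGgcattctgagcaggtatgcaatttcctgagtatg
Snhg1: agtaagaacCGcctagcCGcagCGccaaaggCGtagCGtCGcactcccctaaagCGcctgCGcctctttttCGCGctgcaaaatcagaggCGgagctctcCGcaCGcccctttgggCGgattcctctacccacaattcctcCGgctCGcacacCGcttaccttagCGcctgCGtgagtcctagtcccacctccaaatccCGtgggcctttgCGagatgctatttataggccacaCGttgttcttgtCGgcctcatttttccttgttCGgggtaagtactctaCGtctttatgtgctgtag
*Gas5* has 19 CG dinucleotides in this window and *Snhg1* 25, as many or more of which are found in 28.1% and 18.4% of the 32851 promoters in the table. The letters TATA stand between 40 and 21 bases before the start in both, as in 5.34% of all promoters (searched on this strand only). The palindrome TGACGTCA, known as the cyclic AMP response element, begins 46 bases before the *Gas5* start and is found in 1.79% of promoters, and it is not in the *Snhg1* window. Within the first 20 bases, the longest run of C and T is 9 bases in *Snhg1* and 5 in *Gas5*, with runs at least as long in 4.2% and 32.8% of promoters.

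*Snhg1* was the only one of the 7 genes with EZH2 at its start in all 6 EZH2 lists, which held for 6.97% of all annotated genes. The 6 peaks share a stretch of 230 bp (chr19:8723096-8723325) that lies 150 to 379 bp upstream of *Snhg1*. The whole stretch is also annotated as exon of *Slc3a2*, 44 to 273 bp inside that gene, and the peaks cannot be assigned to either start. It holds 21 CG dinucleotides, a number reached by 0.334% of all windows of this length on chromosome 19 (median 2). These windows were not limited to promoters, unlike the comparison of promoter sequences above. Peaks were 253 to 673 bp wide with 3.83- to 6.14-fold enrichment over local background. ATRX was listed at the same place in both WT replicates and ATRXΔRBR replicate 1 (3.69-, 3.95- and 4.18-fold), but not in ATRXΔRBR replicate 2, and both WT lists had ATRX at the TSS of 2.24% of genes. At *Gas5*, EZH2 was listed in WT replicate 1 and ATRXΔRBR replicate 1 only, and ATRX in none of 4 lists.

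*Pvt1* (chr15:62037986-62378096, plus strand) spans 340111 bp downstream of *Myc*, whose product is a growth-promoting transcription factor. Its estimated counts were 402 and 412 (WT), 412 and 574.5 (ATRXΔRBR), and 135 and 250 (labelled ATRX KD). In CPM this was 30.7 and 34.4, 43.3 and 41.7, and 14.7 and 11.6, with no overlap between the genotypes. The libraries labelled ATRX KD were at 39.8% of WT (log2 fold change -1.33 ± 0.18, adjusted p = 0.00219). ATRXΔRBR was 1.31-fold of WT and not called (0.39 ± 0.18, adjusted p = 0.260). *Myc* was lower in the libraries labelled ATRX KD too, with 176 and 132 CPM in WT, 131 and 159 CPM in ATRXΔRBR, and 80.4 and 82.9 CPM there (-0.92 ± 0.16, adjusted p = 0.0055).

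*Pvt1* was the only one of the 7 genes with ATRX peaks over the gene in all 4 ATRX lists. The lists held 10 and 7 such peaks in WT and 10 and 6 in ATRXΔRBR, while 8.36% and 4.66% of all genes in the WT lists and 7.91% and 4.55% in the ATRXΔRBR lists had a peak. A peak in all 4 lists was found for 1.81% of all genes and for 13.9% of the 2888 genes that are at least 100 kb long. Merged over the lists, the peaks lay at 14 positions, of which 4 were in all 4 lists, 3 in 3 lists, 1 in 2 lists and 6 in a single list. The positions shared by all 4 began 11.0, 40.2, 207.3 and 248.9 kb downstream of the start, and 13 of the 14 positions touched no annotated exon of *Pvt1*. Only ATRXΔRBR replicate 1 had a peak within 2 kb of the TSS. All ATRX positions in 2 or more lists were held by both WT and ATRXΔRBR, while each of the 6 in a single list was held by 1 genotype only. EZH2 peaks were listed at some of the same positions in both WT replicates and ATRXΔRBR replicate 1, most often at 40.2 kb (3 lists), and none were listed in ATRXΔRBR replicate 2 or in the libraries labelled ATRX KD.

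**Figure D5:**
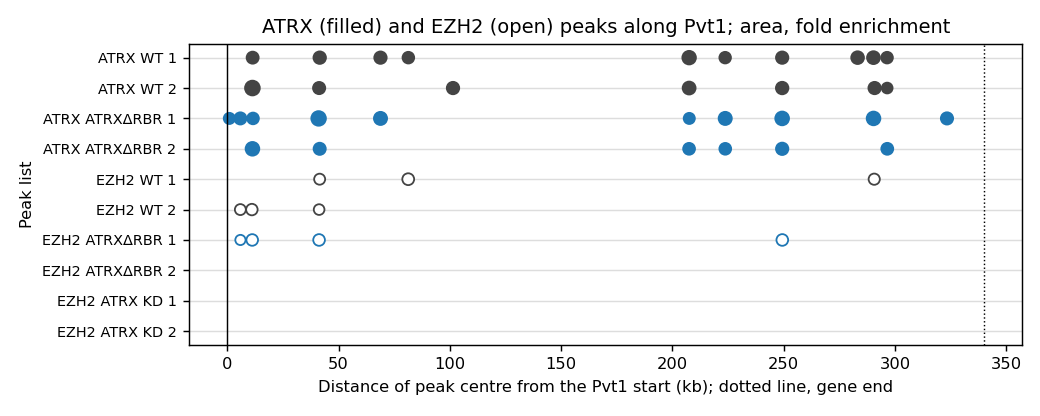
Peaks along *Pvt1*, shown as the distance of each peak centre from the gene start in kb (horizontal axis) for each ATRX and EZH2 list (rows). Filled points are ATRX and open points EZH2 peaks, the point area scales with fold enrichment, black is WT and blue ATRXΔRBR, and the dotted line is the gene end. ATRX points line up near 11, 41, 207 and 249 kb in all 4 ATRX lists, and the rows of EZH2 labelled ATRX KD are empty.

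Sequences at the recurring positions of *Pvt1* are shown because 6 of the 7 positions found in 3 or 4 lists hold the same 7 letters, TGACTCA or its reverse complement TGAGTCA, which are the element known to bind AP-1, a family of transcription factors active in fibroblasts. This motif was chosen after the sequences were read. Each line gives 87 bases of the plus strand of GRCm38.p6 around the first match within the stretch shared by the lists, and capitals mark the matches. The stretches are chr15:62049525-62049611, chr15:62079489-62079575, chr15:62245522-62245608, chr15:62261600-62261686, chr15:62287132-62287218 and chr15:62328584-62328670, and each is named by the distance from the *Pvt1* start to the start of the merged peaks that hold it.
Pvt1 +11.0 kb: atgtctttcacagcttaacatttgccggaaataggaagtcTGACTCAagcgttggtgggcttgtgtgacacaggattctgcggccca
Pvt1 +40.2 kb: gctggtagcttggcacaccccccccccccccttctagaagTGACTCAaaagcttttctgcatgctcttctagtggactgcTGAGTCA
Pvt1 +207.3 kb: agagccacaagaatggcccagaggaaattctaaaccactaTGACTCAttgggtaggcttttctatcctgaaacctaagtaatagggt
Pvt1 +223.5 kb: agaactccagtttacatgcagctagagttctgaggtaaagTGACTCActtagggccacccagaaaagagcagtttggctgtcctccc
Pvt1 +248.9 kb: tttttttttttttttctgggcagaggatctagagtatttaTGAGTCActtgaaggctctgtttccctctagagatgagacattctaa
Pvt1 +289.6 kb: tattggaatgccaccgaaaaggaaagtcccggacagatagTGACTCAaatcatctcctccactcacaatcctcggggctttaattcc
Over 300 bases centred on the shared stretch, 6 of the 7 positions in 3 or 4 lists and 3 of the 7 positions in 1 or 2 lists held a match. Among all ATRX peaks, a match within 300 bases at the centre was found for 35.6% and 37.6% in the WT lists and for 24.5% and 38.2% in the ATRXΔRBR lists. It was found in 4.73% of all 300-base windows of chromosome 15. A match describes the sequence, and binding of AP-1 was not measured.

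*Hotair* (chr15:102944062-102947730, minus strand) lies within the HoxC cluster, 5453 bp from *Hoxc12* and 6697 bp from *Hoxc11*, which were also at 0 counts in all 6 libraries. The whole gene was covered by a broad H3K27me3 domain, 250552 and 289915 bp wide in the WT lists and 257401 and 258310 bp wide in the ATRXΔRBR lists. EZH2 covered it as well, over 134831 and 131073 bp in the WT lists and 111846 and 130100 bp in the ATRXΔRBR lists. No H3K27me3 or EZH2 peak was listed at the *Hotair* TSS in the libraries labelled ATRX KD, where the nearest EZH2 peaks lay 2158 bp from the start in replicate 1 and 5982 bp in replicate 2, neither over the gene. The RNA remained at 0 there.

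*Miat* (chr5:112213228-112229395, minus strand) had an H3K27me3 peak in all 6 lists, over a smaller stretch and with lower enrichment where labelled ATRX KD. The peak at its start was 10485 and 10997 bp wide in WT, 8778 and 7133 bp in ATRXΔRBR, and 2899 and 1752 bp in the libraries labelled ATRX KD, where that of replicate 2 began 1018 bp downstream of the start. Its enrichment was 2.25- and 2.44-fold there, against 4.04- to 6.77-fold in the other lists. Over all H3K27me3 peaks, the lists labelled ATRX KD had median widths of 741 and 750 bp. These medians were 1213 and 1267 bp in WT and 1838 and 1902 bp in ATRXΔRBR. EZH2 peaks of 937 to 2889 bp lay within 2 kb of the *Miat* start in all 4 WT and ATRXΔRBR lists and in neither ATRX KD list. H3K27me3 in all 4 WT and ATRXΔRBR lists was found at 6.90% of TSS, and EZH2 together with H3K27me3 in both WT lists at 4.32%. The promoter of *Miat* is shown because the mark lay at this start in all WT and ATRXΔRBR lists, from the RefSeq table of GRCm38.p6 (chr5:112228899-112229198, read on the minus strand), with CG dinucleotides in capitals.
Miat: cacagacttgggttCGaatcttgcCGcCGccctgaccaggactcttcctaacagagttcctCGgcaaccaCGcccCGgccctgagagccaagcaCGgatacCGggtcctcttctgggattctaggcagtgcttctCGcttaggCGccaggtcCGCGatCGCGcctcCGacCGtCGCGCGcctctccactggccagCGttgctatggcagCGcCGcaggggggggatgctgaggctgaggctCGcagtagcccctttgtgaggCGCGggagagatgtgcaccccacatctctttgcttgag
It has 25 CG dinucleotides, like *Snhg1*, as many or more of which are in 18.4% of promoters.

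These differences at *Hotair* and *Miat* have to be read against the lists as a whole. Of the 6090 TSS with H3K27me3 in both WT lists, 66.9% had no peak in either list labelled ATRX KD (as at *Hotair*), 19.4% had one in both (as at *Miat*), and 62.8% had one in both ATRXΔRBR lists. Of the 12739 TSS with EZH2 in both WT lists, 42.2% had none in either list labelled ATRX KD and 34.7% had one in both, as at *Snhg1*. The H3K27me3 lists labelled ATRX KD hold 7241 and 6336 peaks, against 33105 to 38832 in the other genotypes. Their largest -log10 q is 170 and 173, compared with 17.2 to 24.5, and the number of reads behind each list was not analysed here. The H3K27me3 antibody is named differently in separate parts of the study. With 2 lists per genotype a two-sided exact permutation test cannot give a p below 0.33, and no test was made.

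Across the 6 libraries, the genes whose log2 CPM followed each lncRNA most closely were searched among 11427 other genes (minimum of 10 counts per library). The correlations are a description over 6 points that share the libraries and labels of all results above. For *Gas5* the closest were *Stn1* (Pearson r = 0.999), *Adsl* (0.998), an enzyme of purine synthesis, and *Hnrnpa1* (0.997), a splicing regulator. For *Snhg1* they included *Qtrt2* (0.999), part of the enzyme that puts queuosine into transfer RNA, and *Paics* (0.998), another enzyme of purine synthesis. *Pvt1* was followed by *Xrcc4* (0.999), a DNA end-joining factor, *Rubcnl* (0.998) and *Adh7* (0.998). *Neat1* was followed by *Sfxn4* (0.999), *Aspa* (0.999) and *Cacna1g* (0.998), and *Malat1* by *Ypel2* (0.996), *Sufu* (0.988), an inhibitor of Hedgehog signaling, and 6330403L08Rik (0.982).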

How the data were processed

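RNA-Seq and CUT&RUN libraries of WT, ATRXΔRBR and ATRX KD MEFs were analysed, 22 of 26. RNA-Seq reads were mapped by the authors with STAR, and RSEM gave the deposited values, which are an expected count per gene and its TPM. The deposited average and effective transcript lengths come from the same step. For CUT&RUN, the authors mapped reads to mm10 with Bowtie2 and called broad peaks in each library with MACS2 (broad setting). Each deposited peak carries its fold enrichment, a ratio to local background, and the −log10 of its p- and q-value as MACS2 wrote them. The control given to MACS2 is not given in the sources used here. FPKM and peak scores were not used.

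On rounded values, edgeR 4.0.16 was run on the 4 libraries of each pair of genotypes for genes whose summed expected count before rounding passed 10 (TMM, quasi-likelihood test, R 4.3.3, Benjamini-Hochberg adjustment). CPM were TMM-scaled over 6 libraries. Alternatives used DESeq2 1.42.0, limma 3.58.1 on log2 TPM, other filters and left-out libraries. The test was checked on data simulated for ATRXΔRBR against WT, where it recovered 47 of 100 changes of 2-fold and 97 of 100 changes of 4-fold. A peak was at a TSS when at least 1 bp lay within 2 kb of the outermost gene start. Python 3.11.15 was used for peaks and sequences. Named genes were the 7 lncRNAs, *Atrx*, adjacent or overlapping protein-coding genes, up to 4 called genes per list with the largest change, and the 3 most similar genes. Some genes that this rule takes are not reported here. Gm37376 was named after its values were seen. The genes and lists were chosen with earlier results of these data known.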

Additional observations from a re-analysis of the deposited data

Results flagged for a closer look

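The 5 transcribed lncRNAs differed in level between the libraries labelled ATRX KD and ATRXΔRBR. The test of this difference is the direct comparison of the libraries labelled ATRX KD with ATRXΔRBR (edgeR, adjusted over all genes). The log2 fold change was -0.85 ± 0.12 for *Malat1* (adjusted p = 0.00108), -1.05 ± 0.12 for *Neat1* (adjusted p = 0.00023), -1.74 ± 0.17 for *Pvt1* (adjusted p = 0.000113), -1.83 ± 0.13 for *Gas5* (adjusted p = 1.74e-05) and -2.0 ± 0.13 for *Snhg1* (adjusted p = 1.22e-05). In each case both libraries labelled ATRX KD were lower than both ATRXΔRBR libraries. For *Malat1*, *Neat1*, *Pvt1* and *Gas5* the values against WT were negative in the libraries labelled ATRX KD and positive, though not called, in ATRXΔRBR. For *Snhg1* both were negative. Whether the libraries were sequenced in separate runs is not stated, and genotype and a possible difference in run cannot be told apart in this comparison.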

How the results depend on the processing

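Over the alternative analyses, 220 log2 fold changes of the 5 genes were recomputed. 208 kept their direction and their side of the threshold, 7 lost their call, 5 gained one and 0 changed sign. Those that lost it were *Malat1* and *Neat1* in the libraries labelled ATRX KD against WT. The number of lncRNAs called in that comparison was 3 of 5 with limma on log2 TPM plus 0.1 and 3 to 5 when a library was left out. In ATRXΔRBR against WT it was 1 with all 6 libraries in 1 fit. The cause was not tested.

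Counts of all genes moved more. In ATRXΔRBR against WT, 1979 genes were called with no filter, 597 with at least 10 counts in every library (fewer genes tested), 1812 with all 6 libraries in 1 fit, and 484 and 510 with limma on log2 TPM plus 1 and plus 0.1. Leaving out a library gave 3193 to 8947 genes in the libraries labelled ATRX KD against WT, with 8947 without WT replicate 2, and 3525 and 3193 without the first or second library labelled ATRX KD. Against ATRXΔRBR it gave 3089 to 8736, with 8736 without ATRXΔRBR replicate 1, and 3488 and 3089 without those libraries. An arm with 1 library is assumed to vary like the other. On log2 TPM, the median of all genes was 0.17 and 0.22 in the libraries labelled ATRX KD against WT and 0.14 and 0.18 against ATRXΔRBR, and the 5 genes remained below 0.

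The replicate number as a block gave 1071 genes in ATRXΔRBR against WT, and 5792 and 6775 in the libraries labelled ATRX KD against WT and ATRXΔRBR, and changed no call of the 5 genes. Libraries of the same number did not deviate together (r = -0.65 for WT and ATRXΔRBR, -0.12 for WT and ATRX KD, and 0.15 for ATRXΔRBR and ATRX KD), so the numbers are not shown to pair the samples. A crossed pairing, added after seeing the data, called 5585 genes in ATRXΔRBR against WT, 4 of them among the 5 lncRNAs.

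Numbers of the 7 genes with a peak in both lists of a genotype rest on few peaks. ATRX at the TSS in WT was 1, but 2 from any transcript start, 0 at q of 0.01 or less and 2 to 2 in a single list. In ATRXΔRBR it was 0, and 0 to 4 in a single list. ATRX over the gene was 1 in either genotype, with 1 to 2 and 1 to 3 in a single list. EZH2 at the TSS was 3 in WT and ATRXΔRBR, 3 to 5 in a single list of each, and 1 in ATRXΔRBR by peak midpoint. EZH2 over the gene was 3 and 2, 3 to 5 and 2 to 5 in a single list, and 1 in ATRXΔRBR when 50% of the peak had to lie in the gene. H3K27me3 at the TSS was 2 in WT and ATRXΔRBR and 0 in both by peak midpoint. Over the gene it was 2, and 1 in both with 50% of the peak inside. In ATRX KD it was 1, 0 within 1 kb and 0 at q of 0.01 or less at the TSS and over the gene. The number of reads behind each peak list was not analysed here, and 2 libraries per group limit the RNA comparisons.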

Other observations

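Other nuclear lncRNAs were called in both directions, at a share close to that of all genes. Of 18 further nuclear or chromatin-associated lncRNAs tested in the libraries labelled ATRX KD against WT, 2 were called higher and 4 lower (33.3% called and 22.2% lower, against 33.0% and 17.8% of all genes tested), with a median log2 fold change of -0.01. *Rian* (-6.09, with 7 and 8 counts in WT and 0 in both libraries labelled ATRX KD, so that the fitted value depends on the prior count), *Sox2ot* (-3.76, with at most 14 counts in any library) and *Mir17hg* (-1.58), the host transcript of a microRNA cluster, were lower. *Kcnq1ot1*, the imprinted antisense RNA of the *Kcnq1* domain, rose (1.77 ± 0.39, adjusted p = 0.0139).

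*Kcnq1ot1* and *Snhg14*, both transcribed from imprinted regions, differed from WT in opposite directions in ATRXΔRBR and in the libraries labelled ATRX KD. Estimated counts of *Kcnq1ot1* were 297 and 97 (WT), 8 and 8 (ATRXΔRBR), and 493 and 1128 (labelled ATRX KD). Its log2 fold change was -4.45 ± 0.59 in ATRXΔRBR against WT (adjusted p = 0.00398) and 6.22 ± 0.23 in the libraries labelled ATRX KD against ATRXΔRBR (adjusted p = 6.5e-07). Those of *Snhg14* were 35 and 42 (WT), 5 and 11 (ATRXΔRBR), and 163 and 317 (labelled ATRX KD), and its lower level in ATRXΔRBR was not called by DESeq2 at an adjusted p under 0.05 or by limma on log2 TPM. *Hotairm1*, a lncRNA of the HoxA cluster, was the only other gene of the list called in ATRXΔRBR against WT (1.35 ± 0.32, adjusted p = 0.0488). Of the 18 nuclear or chromatin-associated lncRNAs tested in that comparison, 11.1% were called, against 6.85% of all genes.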
